A study of Bos taurus with 14 samples.

Results

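The RNA of milk fat globules was examined here for genes of neutrophils and of acute inflammation: S100A8, S100A9, S100A12, CXCL8 and IL1B. They were chosen by Ensembl cattle identifier, and 4 of the 5 have a row among the 36075 genes of the deposited tables. These are S100A9 (ENSBTAG00000006505), S100A12 (ENSBTAG00000012638), CXCL8 (ENSBTAG00000019716) and IL1B (ENSBTAG00000001321), while S100A8 was not analysed here. Milk fat globules are droplets that the secretory cell of the udder releases wrapped in its own membrane, and some cytoplasm with RNA travels with them. Each of 14 purebred Holstein cows of 1 commercial farm gave 1 library, 7 from cows homozygous for the A1 form of β-casein (A1A1) and 7 from cows homozygous for the A2 form (A2A2). All cows shared feed and management. The RNA came from frozen milk, and a step that removes milk cells is not given in the sources used here. Cow age, stage of lactation and udder health are not given there either.

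S100A8, S100A9 and S100A12 are small calcium-binding proteins that fill the cytoplasm of neutrophils, the white blood cells that enter the udder first when bacteria do. S100A8 and S100A9 pair to form calprotectin, which withholds zinc and manganese from microbes. CXCL8 (interleukin-8) is the chemokine that draws neutrophils out of blood, and IL1B (interleukin-1 beta) is a cytokine of macrophages, neutrophils and some epithelia that starts the inflammatory response. Both are induced through NF-kappaB signalling, whereas the S100 proteins are stocked in the resting neutrophil. In the reference annotation S100A12 lies between S100A8 and S100A9, with no other protein-coding gene among them. The gene lengths implied by the deposited values were 1138 bases for S100A9, 451 for S100A12, 1481 for CXCL8 and 1739 for IL1B.

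All 4 genes were detected in all 14 libraries, and each varied widely between cows. Total counts ran from 16116849 to 22994197 per library, and the 4 genes together made up 0.000974% of the library in A1A1 7, the smallest share, and 0.1003% in A1A1 2, the largest. S100A12 ran from 7.31 to 723 CPM (the usual count unit relative to library size, here with TMM factors), a 98.9-fold range. S100A9 ran from 0.822 to 262 CPM (318-fold), CXCL8 from 0.440 to 166 CPM (376-fold) and IL1B from 0.880 to 135 CPM (153-fold). These folds rest partly on single libraries: S100A9 spanned 83.5-fold without A1A1 7 and 105.7-fold without A1A1 2, CXCL8 198.7-fold without A1A1 15, and IL1B 85.8-fold without A1A1 8. Without both A1A1 7 and A2A2 17 the ranges were 55.1-fold for S100A9, 35.0-fold for S100A12, 24.9-fold for CXCL8 and 26.4-fold for IL1B. The standard deviation of log2(CPM + 0.5) over the 14 cows was 2.02 for S100A12, 2.05 for S100A9, 2.13 for CXCL8 and 2.04 for IL1B, against a median of 0.511 over the 12320 genes tested. The 4 genes therefore stood between the 99.6 and the 99.8 percentile of all tested genes in their spread. By mean CPM S100A12 was rank 294, S100A9 rank 1476, IL1B rank 2123 and CXCL8 rank 2191 of these genes.

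The same libraries were low in all 4 genes, but a different cow was highest in each. A1A1 7 and A2A2 17 held the lowest and second lowest place for all 4, and A2A2 13 was among the lowest 4 libraries for all 4. S100A9 was highest in A1A1 2, S100A12 in A1A1 9, CXCL8 in A1A1 15 and IL1B in A1A1 8. Counts in the low libraries were small: A1A1 7 had 13 of S100A9, 120 of S100A12, 10 of CXCL8 and 14 of IL1B, and A2A2 17 had 57, 133, 8 and 16. The 8 counts of CXCL8 in A2A2 17 correspond to 0.457 CPM before TMM scaling, with an exact binomial 95% interval of 0.197 to 0.901 that covers counting error only. In the highest library CXCL8 had 2856 counts, so the range between libraries is far wider than counting error. With 1 library per cow, differences between cows and between library preparations cannot be told apart. In a bulk library fewer cells of a type and less RNA per cell cannot be told apart.

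**Figure D1:**
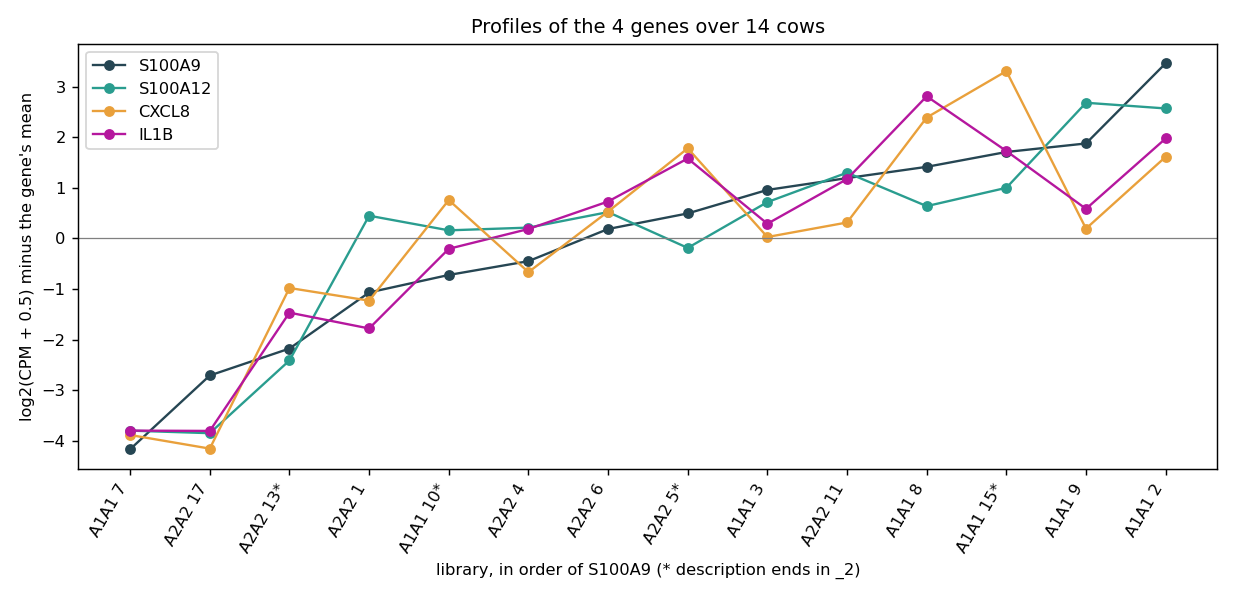
Level of each gene by library as log2(CPM + 0.5) minus that gene's mean over the 14 libraries (vertical axis), with libraries in order of S100A9 (horizontal axis, an asterisk marks a description ending in _2). All 4 lines are lowest in A1A1 7 and A2A2 17, and they part in the upper libraries, where CXCL8 peaks in A1A1 15, IL1B in A1A1 8 and S100A12 in A1A1 9.

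Between the genotypes, all 4 genes had lower mean levels in A2A2 than in A1A1, but the groups overlapped and 0 of the 4 passed the test. The comparison asked whether the globule transcriptome differs with the β-casein genotype. In edgeR's quasi-likelihood test 0 of 12320 genes were called at an adjusted p of 0.05 (0%), and 411 (3.34%) had an unadjusted p under 0.05. The adjusted p was 0.856 for each of the 4 genes. DESeq2, run on 21104 genes with at least 1 count, called 5 at that threshold, with none of the 4 among them. Limma voom with quality weights called 0 of 12320.

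S100A9, the larger subunit of calprotectin, had 0.822 CPM in the lowest A1A1 library, a median of 62.9 and a highest of 262. In A2A2 the lowest was 3.13 CPM, the median 16.9 and the highest 53.9. All 7 A2A2 libraries lay below the A1A1 median, yet the lowest library of all was A1A1 7. The means were 78.5 ± 86.8 CPM in A1A1 and 21.3 ± 18.1 CPM in A2A2 (SD, n = 7 each). edgeR fitted a log2 fold change of -1.88 (unadjusted p = 0.0400, adjusted p = 0.856). It was -1.17 without A1A1 2, the highest library. The difference between the mean log2(CPM + 0.5) values, which gives the highest libraries less weight, was -1.30 (standard error 1.07).

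S100A12, a neutrophil protein that binds the receptor RAGE, had 7.59 CPM in the lowest A1A1 library, a median of 185 and a highest of 723. In A2A2 the lowest was 7.31 CPM, the median 130.2 and the highest 277. A1A1 2 (669 CPM) and A1A1 9 (723 CPM) lay above the highest A2A2 library, and the other 5 A1A1 libraries lay within the A2A2 range. The means were 302 ± 279 CPM in A1A1 and 121 ± 91.9 CPM in A2A2 (SD, n = 7 each). The fitted log2 fold change was -1.31 (edgeR adjusted p = 0.856), and the difference of mean log2 CPM was -1.13 (standard error 1.08).

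CXCL8 had 0.633 CPM in the lowest A1A1 library, a median of 27.9 and a highest of 166. In A2A2 it had 0.440, 10.1 and 57.1 CPM at the lowest, median and highest library. 6 of the 7 A2A2 libraries were below the A1A1 median, the exception being A2A2 5 with 57.1 CPM. The means were 52.5 ± 57.3 and 18.0 ± 19.0 CPM (SD, n = 7 each). The fitted log2 fold change was -1.54 (edgeR adjusted p = 0.856) and -0.90 without A1A1 15, the highest library. The difference of mean log2 CPM was -1.26 (standard error 1.13).

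IL1B had 0.886 CPM in the lowest A1A1 library, a median of 28.5 and a highest of 135. In A2A2 it had 0.880, 21.5 and 57.2 CPM. Here only 4 of the 7 A2A2 libraries were below the A1A1 median. The means were 48.9 ± 46.1 and 23.7 ± 21.3 CPM (SD, n = 7 each). The fitted log2 fold change was -1.05 (edgeR adjusted p = 0.856) and -0.54 without A1A1 8, the highest library. The difference of mean log2 CPM was -0.97 (standard error 1.10).

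The 95% intervals of limma voom included both no difference and decreases of several fold for all 4 genes. The log2 interval was -3.18 to 0.29 for S100A9, -2.91 to 0.56 for S100A12, -3.93 to 0.31 for CXCL8 and -3.48 to 0.68 for IL1B. Without A1A1 7 and A2A2 17, the low library of each genotype, edgeR gave -1.91, -1.31, -1.54 and -1.05 for the same 4 genes, and the adjusted p was 0.660 for each. That fit was chosen after the data were seen, and it called 0 genes in all.

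**Figure D2:**
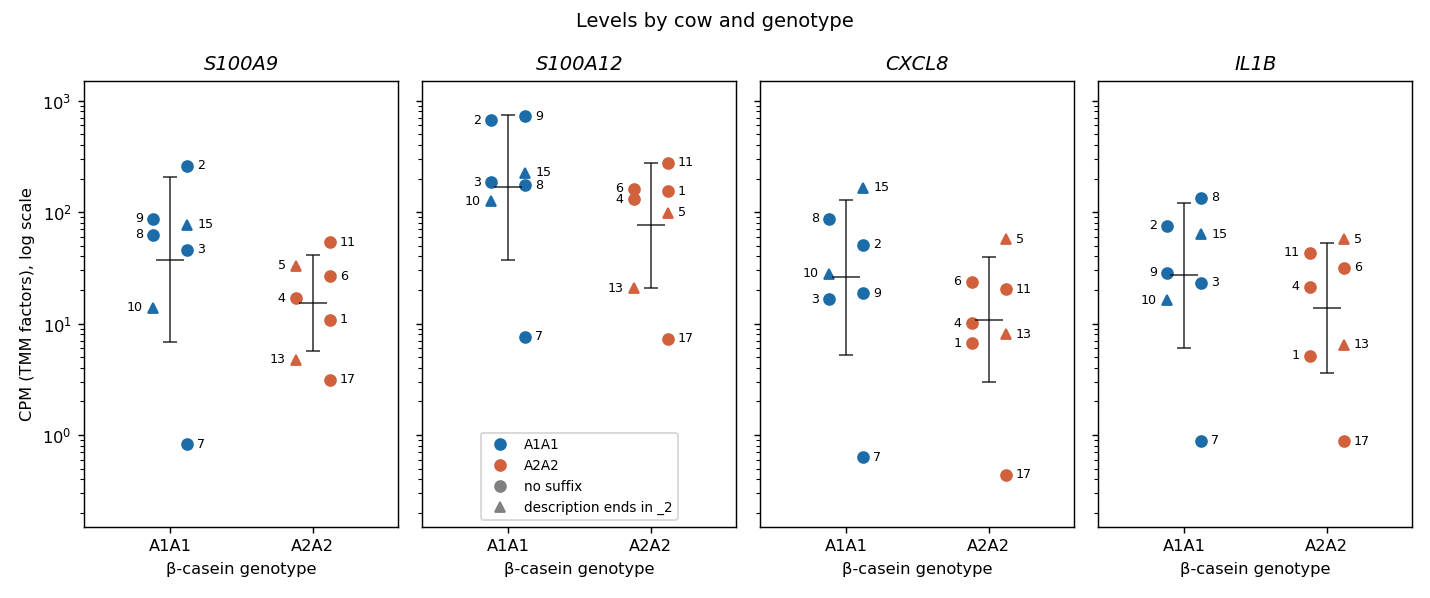
CPM of each gene on a log scale (vertical axis) for 7 A1A1 and 7 A2A2 libraries (horizontal axis), with the sample number beside each point. Triangles mark libraries whose description ends in _2, and black bars give the mean ± SD of log2(CPM + 0.5), drawn on the CPM axis. The genotypes overlap for all 4 genes, and each genotype holds 1 library far below its others for CXCL8 and IL1B, A1A1 7 and A2A2 17.

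The 4 genes varied together across cows. Over 14 libraries the Pearson correlation of log2(CPM + 0.5) was 0.92 for the S100 pair (Spearman 0.91) and 0.95 for CXCL8 with IL1B (Spearman 0.91). S100A9 correlated with IL1B at 0.90 (Spearman 0.88) and with CXCL8 at 0.83 (Spearman 0.75). S100A12 correlated with IL1B at 0.82 (Spearman 0.69) and with CXCL8 at 0.76 (Spearman 0.52). All 6 Pearson correlations passed a permutation test, with p between 1e-05, the smallest that 100000 resamples can give, and 0.00259 (adjusted over the 6 pairs 6e-05 to 0.00259). By Spearman's rho 5 of 6 passed, and S100A12 with CXCL8 did not (permutation p = 0.0597, adjusted p = 0.0597). Whether one pair correlates more closely than another was not tested.

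Part of this agreement rests on the low libraries. Without the 2 libraries farthest from the median of the gene on the x axis, r was 0.88 for S100A9 with S100A12, 0.79 for S100A9 with CXCL8 and 0.88 for S100A9 with IL1B, each without A1A1 2 and A1A1 7. It was 0.85 for CXCL8 with IL1B, without A1A1 7 and A2A2 17. For S100A12, too, the 2 farthest libraries were A1A1 7 and A2A2 17, and without them r was 0.33 with CXCL8 (permutation p = 0.301, adjusted p = 0.301) and 0.51 with IL1B (permutation p = 0.0923, adjusted p = 0.111). Those 2 relations therefore rest on A1A1 7 and A2A2 17. With these 2 libraries left out for every pair, r was 0.86 for the S100 pair, 0.80 for S100A9 with IL1B, 0.64 for S100A9 with CXCL8 and 0.85 for CXCL8 with IL1B. In A2A2 1 S100A12 parted from the other genes: it had 153 CPM there, rank 7 of 14 from the bottom. CXCL8 had 6.64 and IL1B 5.12 CPM in that library, both rank 3, and S100A9 was at rank 4.

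Within each genotype, A1A1 7 and A2A2 17 kept in, the correlations had the same sign. In A1A1 they ran from 0.73 for S100A12 with CXCL8 to 0.95 for the S100 pair. In A2A2 they ran from 0.75 for S100A12 with CXCL8 to 0.95 for CXCL8 with IL1B, and S100A9 with IL1B (0.93) stood above the S100 pair (0.89). By Pearson's r 3 of the 6 pairs passed among the 7 A1A1 libraries and 5 of 6 among the 7 A2A2 libraries (exact permutation tests, adjusted over 6 pairs). By Spearman's rho 1 pair passed in A1A1 and 3 in A2A2, and rho for S100A12 with CXCL8 was 0.32 in A1A1 and 0.46 in A2A2. The 4 libraries A1A1 10, A1A1 15, A2A2 5 and A2A2 13 have _2 at the end of their description. The labels give no meaning for this suffix, and it was handled as a possible batch. Among the 10 other libraries r lay between 0.85 and 0.99, highest for CXCL8 with IL1B, and all 6 pairs passed. These 10 include A1A1 7 and A2A2 17, and neither they nor the genotype groups were tested without those 2 libraries.

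**Figure D3:**
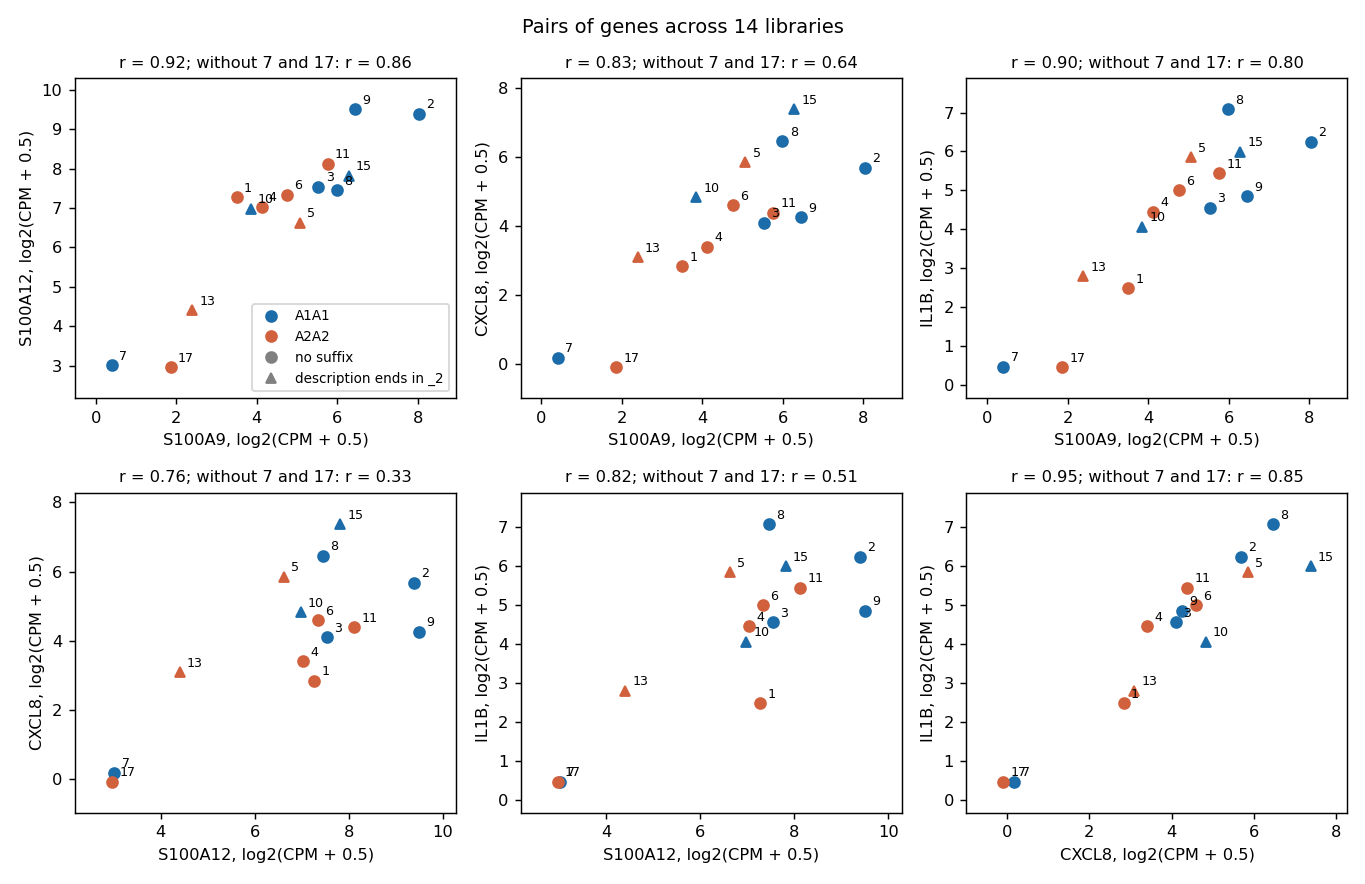
Each panel sets 2 genes against each other as log2(CPM + 0.5), with 1 point per library, its sample number, and Pearson's r with and without A1A1 7 and A2A2 17. CXCL8 against IL1B keeps a high r without those 2 libraries (r = 0.95 with and 0.85 without), and so does S100A9 against S100A12 (0.92 and 0.86). For S100A12 against CXCL8 r is much lower without them (0.76 with and 0.33 without).

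A1A1 7 and A2A2 17, lowest in all 4 genes, were also the libraries of least depth. They had 16116849 and 17499819 counts, and A1A1 7 also had the fewest genes detected (12545, against 17044 in A1A1 8, the most). Across 14 libraries r with the total count was 0.39 to 0.47 for the 4 genes (Spearman 0.16 to 0.29), and r with the number of genes detected was 0.50 to 0.59 (Spearman 0.34 to 0.53). Within a genotype r with the total count was higher, 0.50 to 0.61 in A1A1 and 0.78 to 0.85 in A2A2. These within-genotype values were not tested. With the TMM factor r was -0.27 to -0.04 (Spearman -0.48 to -0.11). 0 of the 12 relations over all 14 libraries passed the permutation test after adjustment (lowest Pearson p = 0.0278, adjusted p = 0.164; lowest Spearman p = 0.0521, adjusted p = 0.274). Without A1A1 7 and A2A2 17 the r with the total count was -0.37 to -0.21, and that with genes detected 0.30 to 0.48. Without A1A1 7 and A1A1 8, the extremes of genes detected, r with that number was 0.18 to 0.24. Markers of neutrophils, macrophages, lymphocytes and secretory epithelium could not be located among the identifiers, so which cells carried these transcripts was not tested.

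Per length of transcript, S100A12 was by far the most abundant of the 4 genes. Its deposited FPKM (fragments scaled by gene length and library size) was above that of S100A9 in 14 of 14 libraries, by 5.89-fold in A2A2 17 to 35.7-fold in A2A2 1, with a median of 11.97-fold. The median FPKM over 14 libraries was 349 for S100A12, 26.2 for S100A9, 14.6 for IL1B and 13.01 for CXCL8. S100A9, IL1B and CXCL8 overlapped widely between cows, at 0.720 to 222, 0.507 to 78.3 and 0.299 to 111 FPKM. CXCL8 was between 0.550 and 3.06 times IL1B, a 5.57-fold range, while IL1B varied 153-fold and CXCL8 376-fold. Without A1A1 7 and A2A2 17, where counts of both were 8 to 16, the ratio still ranged 5.57-fold, and IL1B and CXCL8 ranged 26.4- and 24.9-fold. The ratio of CXCL8 to S100A9 varied more, 15.3-fold, from 0.108 in A2A2 17 to 1.65 in A1A1 15. S100A12 to S100A9 ranged 6.07-fold and IL1B to S100A9 7.64-fold over the 14 libraries. The genotypes overlapped in each of the 4 ratios computed: CXCL8 to IL1B had a median of 0.839 in A1A1 and 0.884 in A2A2, and S100A12 to S100A9 had 10.2 and 12.98.

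The ratios with CXCL8 as numerator differed by the unexplained _2 of the description. CXCL8 to S100A9 was 1.29 to 1.65 in the 4 libraries with it and 0.108 to 1.07 in the 10 without, with no overlap. The mean log2 ratio differed by 2.09 (0.53 and -1.56, exact permutation p = 0.00300, adjusted p = 0.00599 over 4 ratios). CXCL8 to IL1B was 1.17 to 3.06 with the suffix, and 9 of the 10 other libraries lay below 1, A2A2 1 being the exception at 1.52. Its mean log2 ratio differed by 1.21 (exact permutation p = 0.00300, adjusted p = 0.00599). The same difference was 0.88 for IL1B to S100A9 (exact permutation p = 0.132, adjusted p = 0.176) and -0.30 for S100A12 to S100A9 (exact permutation p = 0.549, adjusted p = 0.549). All 4 tests are two-sided and were chosen after the ratios were seen. Ratios of other genes were not examined, so how many of them differ by the suffix is not known here. Without A1A1 7 and A2A2 17 the differences for CXCL8 were 1.99 to S100A9 and 1.18 to IL1B (exact permutation p = 0.00404 and 0.00606, adjusted p = 0.0121 for both).

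For the single genes no difference by the suffix was detected. With genotype as a covariate edgeR called 182 of 13323 genes between libraries with and without the suffix (1.37%), and 0 of the 4. That share depends on single libraries, since 7 of the 14 fits that leave out 1 library called 0 genes and the one without A1A1 7 called 518. An unadjusted p under 0.05 was reached by 2576 of the 13323 genes in the main edgeR fit by suffix. The fitted log2 fold changes were 1.39 for CXCL8 (adjusted p = 0.406), 0.11 for IL1B (adjusted p = 0.963), -0.65 for S100A9 (adjusted p = 0.748) and -1.19 for S100A12 (adjusted p = 0.502). The genotype difference of mean log2 CPM was negative in both kinds of library: -1.28 for S100A9, -0.84 for S100A12, -1.11 for CXCL8 and -1.07 for IL1B among the 10 libraries without the suffix. Between the 2 A2A2 and 2 A1A1 libraries with it, the values were -1.34, -1.88, -1.63 and -0.70, for which no test was run.

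**Figure D4:**
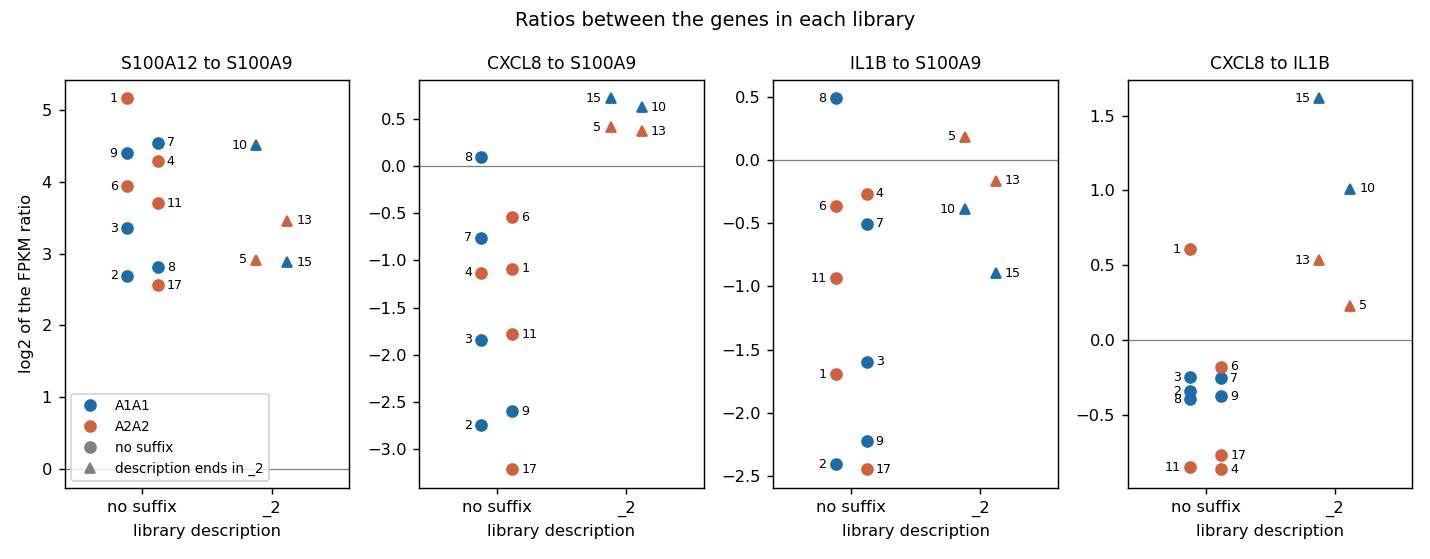
log2 of the ratio of deposited FPKM values between 2 genes (vertical axis) in libraries without and with a description ending in _2 (horizontal axis), with 1 point per library and its sample number. The 4 libraries with the suffix lie above 0 for CXCL8 to S100A9 and CXCL8 to IL1B. Of those without it, A1A1 8 lies above 0 for the first ratio and A2A2 1 for the second. The 2 kinds of library do not overlap for CXCL8 to S100A9. They overlap for CXCL8 to IL1B, through A2A2 1, and for S100A12 to S100A9 and IL1B to S100A9.

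Other genes followed these patterns closely, but the files do not pair their identifiers with names. Of 12316 other tested genes, 260 had r of at least 0.9 with S100A12 over 14 libraries (2.11%), 61 with S100A9 (0.495%), 44 with IL1B (0.357%) and 39 with CXCL8 (0.317%). The median r over these genes was between -0.02 and -0.01 for each of the 4. For S100A12 897 genes had r of at least 0.8 and 238 had r of -0.8 or less. The same counts were 543 and 150 for S100A9, 174 and 10 for IL1B, and 152 and 11 for CXCL8. The 2 genes with the highest mean r over the 4 were ENSBTAG00000031814 and ENSBTAG00000019665. ENSBTAG00000031814 had r of 0.94 with S100A9, 0.88 with S100A12, 0.94 with CXCL8 and 0.96 with IL1B, and ran from 4.45 CPM in A2A2 17 to 569 in A1A1 15. ENSBTAG00000019665 had 0.92, 0.91, 0.93 and 0.95, and ran from 3.73 CPM in A1A1 7 to 317 in A1A1 8. These correlations share the 14 libraries and their scaling and are given as a description. A1A1 7 and A2A2 17 were kept in, and r of other genes without these 2 libraries was not computed.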

How the data were processed

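Frozen milk gave total RNA, sequenced as paired-end mRNA libraries per the labels' protocols. The deposited tables hold unnormalized counts and, in a second file, FPKM of each gene. Tools in the submitters' processing notes are STAR, cutadapt 4.0, FastQC 0.11.9 and edgeR 4.0.16, with no roles. Build, annotation and counter: not given in the sources used here. Members and lists were chosen with earlier results of these data known. The reference table (ARS-UCD2.0) matched 0 of 36075 identifiers to a symbol, so the marker, pathway and S100 lists were not run. Of the 5 members, 4 have a row, so 6 pairs were tested in place of the planned 10, and 12 library relations in place of 15.

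Genotype and number come from the titles. The count test was edgeR 4.0.16 in R 4.3.3 (TMM, filterByExpr, quasi-likelihood with robust estimation, A2A2 against A1A1, Benjamini-Hochberg over all genes tested, threshold 0.05). CPM use TMM factors and a pseudocount of 0.5 on the log2 scale. Correlations were tested with 100000 resamples, two-sided, and exactly within a genotype. The named genes are the members and, by identifier, the 2 tested genes of highest mean r with them. The scripts were tested on simulated data. There the edgeR genotype test recovered 25 of 100 genes changed 2-fold and 83 of 100 changed 8-fold, with 4 false calls. The changed genes were drawn at random from all 12320, whose median SD of log2(CPM + 0.5) was 0.511. For the 4 members it was 2.02 to 2.13, and recovery of genes as variable as these was not measured separately. Alternatives were RLE factors, library totals, no filter, DESeq2 1.42.0, limma 3.58.1 (voom with quality weights; log2(FPKM + 1), log2(FPKM + 0.1) and no filter on FPKM), the 10 libraries without the suffix, the suffix as a covariate, log2(CPM + 5), and each library left out.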

Additional observations from a re-analysis of the deposited data

Results flagged for a closer look

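Within each genotype, the CPM of the 4 genes and the log2 of 4 FPKM ratios between them were screened by Dixon's test for single extreme cows (16 sets of 7 values), and 2 were found. Chance gives about 1 in 20 sets for normally distributed values, and CPM were searched without a log scale. A1A1 2 had 261.8 CPM of S100A9, and the next A1A1 library had 86.9. A2A2 5 had 57.1 CPM of CXCL8, and the next A2A2 library had 23.7.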

How the results depend on the processing

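No alternative called any of the 4 genes between genotypes or by the suffix, and all 4 kept a negative genotype log2 fold change in each of 25 alternatives: -2.31 to -1.17 for S100A9, -1.66 to -0.93 for S100A12, -2.21 to -0.90 for CXCL8 and -1.46 to -0.54 for IL1B, with adjusted p of 0.447 or more. S100A9 had an unadjusted p under 0.05 in 9 of these, CXCL8 in 3, S100A12 in 2 and IL1B in 0. Among all genes in edgeR, such a p was reached by 1364 of 12602 without A1A1 7 and 1355 of 12405 without A2A2 11. Without A2A2 17 the count was 224 of 12569. The alternatives share most libraries, so they are not independent repeats. Those on FPKM also start from values that are not scaled by the total count alone. Library totals shifted all genes together, to a median log2 fold change of 0.18. Over all genes the count called was 0 in the main test, 5 of 21104 with DESeq2 and 1 of 9848 by limma on log2(FPKM + 1). It was 0 (lowest 0, highest 0) when leaving out 1 library. The cause of these differences was not tested. By suffix, 182 genes were called in the main test, 51 with library totals, 967 of 21104 with DESeq2 and 111 without the genotype covariate. The fits that leave out 1 library called between 0 and 518, with most calls without A1A1 7 and 0 calls in 7 of 14 fits. The suffix log2 fold change of IL1B, 0.11, was -0.083 without the covariate, and -0.84 to 0.46 when leaving out 1 library, lowest without A2A2 5; it was negative without A1A1 15 (-0.026), A2A2 1 (-0.050), A2A2 5 (-0.84) or A2A2 17 (-0.082). Of the 6 correlations by Pearson's r, 6 passed when any 1 library was left out and 4 without A1A1 7 and A2A2 17. Within a genotype, with 7 libraries each, 3 passed in A1A1 and 5 in A2A2. By Spearman's rho, 5 passed in 10 and 6 in 4 of the 14 fits without 1 library. It was 1 within A1A1, 3 within A2A2 and 3 without A1A1 7 and A2A2 17. No paired analysis was possible because the genotypes share no sample number. CXCL8 and IL1B counts of 8 to 16 in A1A1 7 and A2A2 17 limit the ratios there.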
